A study of Mus musculus with 32 samples.

Results

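The subject was 10 genes that encode inflammatory and senescence-associated cytokines, followed across mouse pancreatic tumours that had or had not been irradiated. The members were listed by name: Il6, Il1a, Il1b, Tnf, Lif, Il11, Csf1, Csf2, Csf3 and Il33. They are 10 of the 55103 genes in the deposited table, and all 10 had enough counts to be tested among 20474 genes. Bulk RNA sequencing covered 32 tumours grown from KPC36 cells, a single line of the KPC family of mouse pancreatic ductal adenocarcinoma lines. The 4 groups held 8 libraries each: tumours given carbon ions, the untreated controls of that arm, tumours given photons, and the untreated controls of that second arm. The radiation dose, the host mice and the site of the tumours are not given in the sources used here. Tumours were taken on day 4 or day 7, but the day of a library is not in the labels, so the days cannot be compared. The labels do not say that each library came from its own mouse, so p-values measure the spread between these libraries.

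These cytokines are secreted or released proteins by which damaged, inflamed or senescent cells signal to their neighbours. Interleukin-1 family members (Il1a, Il1b and Il33) and TNF act through receptors that lead to NF-kB, and NF-kB in turn drives transcription of many cytokine genes, including Il6. Interleukin-6, LIF and interleukin-11 share the receptor subunit gp130 and activate STAT3, whereas the colony-stimulating factors (Csf1, Csf2 and Csf3) support the growth and survival of macrophages and granulocytes. In pancreatic tumours these proteins are exchanged between malignant cells, fibroblasts and myeloid cells, and several belong to the secretory programme of senescent cells that can follow irradiation.

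The sequences just upstream of Il33, Il11, Il1a and Tnf are shown because these are the members that differed between groups in at least 1 comparison. Each is the run of 250 bases that ends at the base before a start site annotated by RefSeq on build GRCm38.p6, read 5′ to 3′ on the gene's own strand. Capitals mark matches to 5 searched motifs: AP-1 (TGANTCA), C/EBP (TTGCNNAA), STAT (TTCNNNGAA), the TATA box (TATAAA) and the kappa B consensus. Both strands were searched from 250 bases before to 50 bases after the start, and no motif was found in the part after the start. Il33 and Il11 each have 2 annotated starts, and the second lies inside the gene.
Il33, first start (chr19:29924863-29925112, plus strand): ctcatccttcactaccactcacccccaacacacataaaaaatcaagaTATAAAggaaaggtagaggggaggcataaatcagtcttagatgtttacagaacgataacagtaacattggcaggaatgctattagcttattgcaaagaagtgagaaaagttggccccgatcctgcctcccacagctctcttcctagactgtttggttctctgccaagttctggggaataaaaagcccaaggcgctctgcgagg
Il33, second start (chr19:29945540-29945789, plus strand): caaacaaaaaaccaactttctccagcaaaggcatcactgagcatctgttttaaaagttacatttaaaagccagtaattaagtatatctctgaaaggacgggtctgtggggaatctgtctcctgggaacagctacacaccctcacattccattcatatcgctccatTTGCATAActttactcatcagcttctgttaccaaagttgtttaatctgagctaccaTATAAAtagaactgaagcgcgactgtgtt
Il11, first start (chr7:4782858-4783107, minus strand): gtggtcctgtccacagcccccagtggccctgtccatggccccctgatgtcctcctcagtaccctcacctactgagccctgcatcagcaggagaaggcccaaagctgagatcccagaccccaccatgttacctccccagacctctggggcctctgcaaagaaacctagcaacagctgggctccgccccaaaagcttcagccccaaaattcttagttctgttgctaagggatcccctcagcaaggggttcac
Il11, second start (chr7:4778142-4778391, minus strand): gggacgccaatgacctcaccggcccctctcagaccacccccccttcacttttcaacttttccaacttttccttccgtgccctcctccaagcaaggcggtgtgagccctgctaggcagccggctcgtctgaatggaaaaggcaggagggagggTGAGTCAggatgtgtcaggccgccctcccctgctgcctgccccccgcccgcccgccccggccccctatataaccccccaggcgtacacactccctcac
Il1a (chr2:129309973-129310222, minus strand): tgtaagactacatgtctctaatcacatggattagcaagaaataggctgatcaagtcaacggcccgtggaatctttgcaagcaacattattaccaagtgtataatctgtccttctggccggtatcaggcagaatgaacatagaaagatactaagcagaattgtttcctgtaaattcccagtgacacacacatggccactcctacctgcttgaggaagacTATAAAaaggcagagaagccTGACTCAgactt
Tnf (chr17:35202008-35202257, minus strand): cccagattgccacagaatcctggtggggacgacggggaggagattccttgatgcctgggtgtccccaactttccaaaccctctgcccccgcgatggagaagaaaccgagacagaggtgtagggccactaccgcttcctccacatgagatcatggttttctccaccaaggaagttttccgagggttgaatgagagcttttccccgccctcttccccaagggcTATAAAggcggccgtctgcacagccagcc

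A TATA box stood 32 bases before the start of Il1a, 29 bases before that of Tnf and 29 bases before the second start of Il33, and the first Il33 window held one 203 bases before its start. AP-1 was matched 12 bases before the start of Il1a and 98 bases before the second start of Il11, while the window of the first Il11 start held none of the 5 motifs. C/EBP was matched 85 bases before the second start of Il33. Among the other members, Il6 matched kappa B 44 bases, C/EBP 128 bases and AP-1 249 bases before its start, and Csf1 matched kappa B 154 bases before its own. Il1b matched the TATA box at 31 bases, Lif AP-1 at 228 bases and Csf2 C/EBP at 145 bases. Of 32817 windows of the same length, 13.6% held the TATA box, 7.81% AP-1, 10.8% C/EBP, 8.29% STAT and 4.50% kappa B. A match is a description of the letters and was not tested as a binding site.

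Library totals ran from 13891863 to 71645903 estimated counts, and levels are in CPM, a gene's count over its library's total after TMM scaling (trimmed mean of M values). The labels call the cells malignant, but the pieces were tumour tissue. The 6 epithelial markers summed to between 2154 and 4705 CPM per library, the 8 fibroblast markers to between 4653 and 19735 CPM and the 7 macrophage markers to between 306 and 838 CPM. In bulk tissue, fewer cells of a type and less RNA per cell cannot be told apart. A letter opens each title and is not explained: it is D for 7 libraries of the carbon-ion arm, 4 untreated and 3 irradiated, and M for the rest. In the photon arm, title numbers run from 19 to 48 in the controls and begin at 95 in the irradiated libraries, so whatever the numbers stand for, which is not stated, and the effect of photons cannot be told apart.

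Per kilobase of exon, Il33 was by far the most abundant of the 10, with a mean of 50.3 CPM per kb over all libraries. Lif, Il1b and Csf1 followed at 11.8, 10.9 and 10.1 CPM per kb, and their ranges over libraries overlapped. Il11, Tnf, Il1a and Csf2 lay between 2.38 and 4.46 CPM per kb. Il6 and Csf3 were the scarcest, at 0.512 and 0.309 CPM per kb. At its lowest Il6 had 7 counts in a library, and Csf3 had 0 in 1 carbon-ion control. The spread within groups was unequal too: the SD of log2 CPM for Il11 exceeded that of 94.5% of tested genes and that of Il6 exceeded 92.4%, while Il33, Tnf, Lif and Csf1 lay near the median gene.

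The first comparison asked what photons did relative to untreated tumours of the same arm. Il33 and Il11 were lower after photons, and no member was higher. The 2 lower calls among 10 members compare with 2.10% of all tested genes called lower, 1.71% called higher and 3.81% called in either direction. The median log2 difference of the members was -0.22, with 7 of 10 negative, beside a median of -0.00 over all genes.

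Il33, a nuclear alarmin of the interleukin-1 family, lies on chromosome 19 (chr19:29925114-29960718, plus strand, GRCm38). In the photon controls its level ran from 147 to 284 CPM with a median of 201 CPM. After photons it ran from 95.5 to 172 CPM with a median of 125 CPM. All 8 irradiated libraries lay below the control median, but the groups overlapped, because the irradiated library with the highest value exceeded the controls with the lowest values. The mean went from 205 ± 44.6 CPM to 126 ± 26.8 CPM (SD, n = 8 each), a log2 fold change of -0.70 (SE 0.16, adjusted p = 0.0156 by edgeR's quasi-likelihood test). An exact permutation test over all 12870 assignments of 16 libraries gave a two-sided unadjusted p of 0.000777.

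Il11, a gp130 cytokine, lies on chromosome 7 (chr7:4772373-4782859, minus strand). Its photon controls ran from 6.52 to 45.6 CPM with a median of 14.9 CPM, a wide spread with replicates 3 and 6 highest. After photons the range narrowed to between 4.46 and 10.9 CPM, with a median of 5.55 CPM. All 8 irradiated libraries were below the control median, and 2 of them overlapped the lowest control. The mean was 20.1 ± 13.5 CPM in controls and 6.40 ± 2.36 CPM after photons (SD, n = 8 each). The log2 fold change was -1.65 (SE 0.47, adjusted p = 0.0434 by edgeR), and the exact permutation test gave an unadjusted p of 0.000932.

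**Figure D1:**
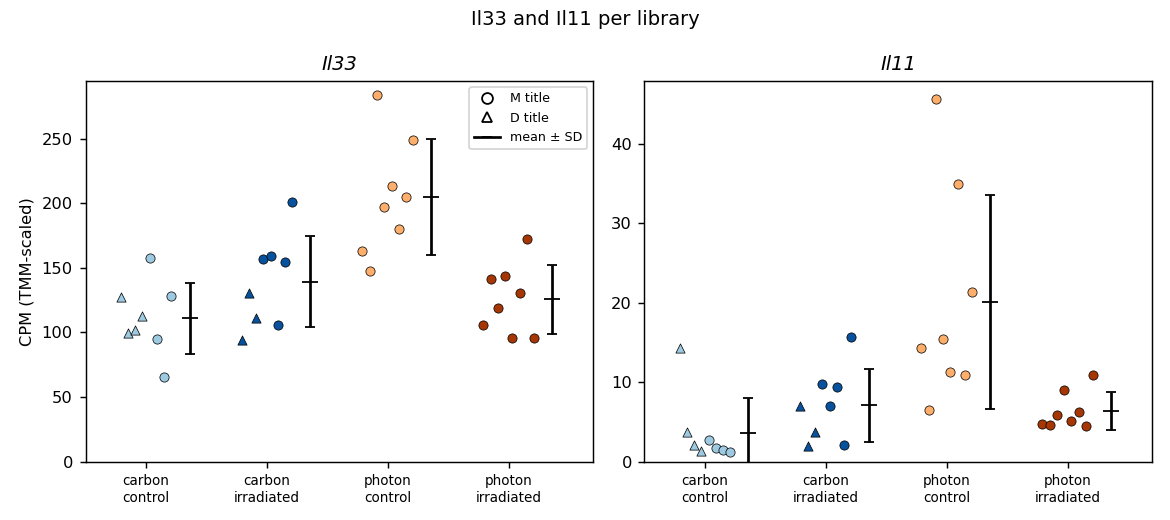
Level of Il33 (left) and Il11 (right) in each library, in TMM-scaled CPM on a linear axis from 0, by group; circles are libraries with M titles, triangles those with D titles, and bars give the mean ± SD of 8. The photon controls are the highest group for both genes, and all 8 photon-irradiated libraries lie below the photon control median.

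Both calls ended when photon control replicate 3, the highest library for both genes, was left out. Without photon control replicate 3 the adjusted p of Il33 was 0.0519 and that of Il11 0.126, and with replicates 3 and 8 left out together, a choice made after seeing the data, they were 0.140 and 0.251 by edgeR, with log2 fold changes of -0.55 and -1.28. Il11 kept an adjusted p under 0.05 in 18 of 32 fits that each left out 1 library, and Il33 in 31.

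Several marker lists also had lower values after photons. All 8 fibroblast markers had a negative log2 difference, 1 of them past the threshold (Pdgfrb), and their summed level ran from 9978 to 19735 CPM in photon controls and from 7708 to 13675 CPM after photons. Skeletal muscle markers, none past the threshold, summed to a median of 587 CPM (6.37 to 1186 CPM) in photon controls and 10.2 CPM (3.85 to 309 CPM) after photons. Neutrophil markers, 2 of 6 past the threshold, had a median sum of 28.3 CPM (17.6 to 39.9 CPM) before and 15.1 CPM (9.01 to 20.8 CPM) after. Blood endothelial markers were negative in 6 of 6, 2 past the threshold (Tek and Emcn), with sums of 231 to 446 CPM before and 169 to 431 CPM after. Dendritic cell markers were negative in 5 of 5, with Zbtb46 past the threshold, and median sums of 23.6 CPM before (lowest 18.1 CPM) and 15.4 CPM after (highest 17.9 CPM). Of the T cell markers 6 of 7 were negative, Cd3d past the threshold, while Cd8a was higher, and the median sums were 10.6 CPM before and 6.07 CPM after (4.37 to 9.32 CPM). Of 7 macrophage markers 6 were negative, with Mrc1 past the threshold (-0.77, adjusted p = 0.0431). Mast cell markers were negative in 5 of 6 with none past the threshold, and had median sums of 49.8 CPM before and 37.3 CPM after. All 4 adipocyte markers were negative, with a median of -1.92 and none past the threshold, and median sums of 1.75 CPM before (up to 44.5 CPM) and 0.783 CPM after (up to 9.92 CPM). No marker of these lists was at 0 in every library of a group. With the muscle score as a term, an alternative added after seeing the data, Il33 was at -0.85 (adjusted p = 0.0171) and Il11 at -1.93 (adjusted p = 0.0436, edgeR). The part of any cell type in the result, muscle included, was not tested.

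The other 8 members did not pass in the photon comparison. Il6, the archetypal senescence-associated cytokine, ran from 0.450 to 4.11 CPM in photon controls (median 1.80 CPM) and from 0.212 to 2.04 CPM after photons (median 0.603 CPM). Of the irradiated libraries 7 lay below the control median, and 1, replicate 5, stood above it. The log2 difference was -1.28 (SE 0.44, adjusted p = 0.0835 by edgeR, 0.0444 by DESeq2), so the call depended on the tool.

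Il1b, whose precursor is cleaved by caspase-1, ran from 15.4 to 56.8 CPM in photon controls and from 11.1 to 20.7 CPM after photons. The medians, 17.8 and 17.4 CPM, were close, and the control mean of 25.5 ± 14.3 CPM was carried by replicate 8 at 56.8 CPM. Its log2 difference was -0.65 (SE 0.22, adjusted p = 0.0844), and -0.37 without that library. Without photon control replicate 2 it was -0.72 and passed, with an adjusted p of 0.0478 by edgeR. Csf1, the macrophage growth factor, averaged 56.1 ± 15.3 CPM in controls and 44.4 ± 11.6 CPM after photons, a log2 difference of -0.34 (SE 0.17, adjusted p = 0.250).

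Tnf, Lif and Csf2 differed little between the photon groups, with log2 differences of -0.11 (SE 0.18), 0.04 (SE 0.17) and -0.07 (SE 0.34). Il1a and Csf3 had positive values, 0.40 (SE 0.28) and 0.49 (SE 0.41), with adjusted p of 0.437 and 0.517. Csf3, which encodes the granulocyte factor G-CSF, rested on 4 to 38 counts per photon-arm library.

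The second comparison asked the same of carbon ions. No member passed, and neither did any other gene: 0% of 20474 genes had an adjusted p under 0.05 by edgeR, 1177 had an unadjusted p under 0.05, and DESeq2 called 17. Of the members 8 of 10 had a positive log2 difference, with a median of 0.26 beside 0.01 over all genes.

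Il11 was scarce in the carbon-ion controls, running from 1.21 to 14.3 CPM with a median of 1.92 CPM. A single control, replicate 1 with a D title, held the 14.3 CPM, and the next highest held 3.71 CPM. After carbon ions Il11 ran from 1.99 to 15.7 CPM with a median of 7.04 CPM, so that all 8 irradiated libraries lay above the control median while the groups overlapped. The log2 difference was 0.97 (SE 0.47, adjusted p = 0.864 by edgeR), and the exact permutation test gave an unadjusted p of 0.0494. Among M-titled libraries alone (5 irradiated, 4 controls) the difference in mean log2 CPM was 2.07 (exact permutation p = 0.0238, unadjusted), and among D-titled libraries (3 irradiated, 4 controls) it was 0.10 (exact p = 0.971). The D-titled value rested on single libraries: it was 0.77 without control replicate 1 and ran down to -0.36 when another was left out. The difference between the title letters was not tested.

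Csf2, which encodes the myeloid growth factor GM-CSF, ran from 0.799 to 2.35 CPM in carbon-ion controls and from 0.652 to 4.58 CPM after carbon ions. Of the irradiated libraries 7 were above the control median, and replicate 3, with a D title, was below every control. The log2 difference was 0.92 (SE 0.34, adjusted p = 0.611), and the difference in mean log2 CPM over all libraries was 0.75 (exact permutation p = 0.0726, unadjusted). It was 1.22 within M-titled libraries (exact p = 0.0317) and 0.06 within D-titled libraries (exact p = 0.914), where it was 0.69 without irradiated replicate 3 and -0.67 without irradiated replicate 1. Whether the title letters differed was not tested.

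Il33 averaged 111 ± 27.4 CPM in carbon-ion controls and 139 ± 35.2 CPM after carbon ions, with a log2 difference of 0.33 (SE 0.16, adjusted p = 0.870). Tnf and Il1a had similar positive values, 0.34 (SE 0.17, adjusted p = 0.895) and 0.42 (SE 0.28, adjusted p = 0.995). Il6, Lif and Csf1 were between 0.08 and 0.18, and Il1b and Csf3 were at -0.18 and -0.20, each with an adjusted p of 0.997. Beside these values all 4 adipocyte markers were negative after carbon ions, with a median log2 difference of -3.63, none past the threshold (lowest adjusted p = 0.553 by edgeR) and 4 with an unadjusted p under 0.05. The adipocyte sums were low, with a median of 2.30 CPM in carbon-ion controls (up to 230 CPM) and 0.667 CPM after carbon ions (up to 17.2 CPM). Mast cell markers were negative in 6 of 6 (median log2 difference -0.63) and dendritic cell markers in 4 of 5 (median -0.23). Neutrophil markers were positive in 4 of 6 (median 0.31), and no marker of these lists passed. The part of these lists in the members' values was not tested.

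**Figure D2:**
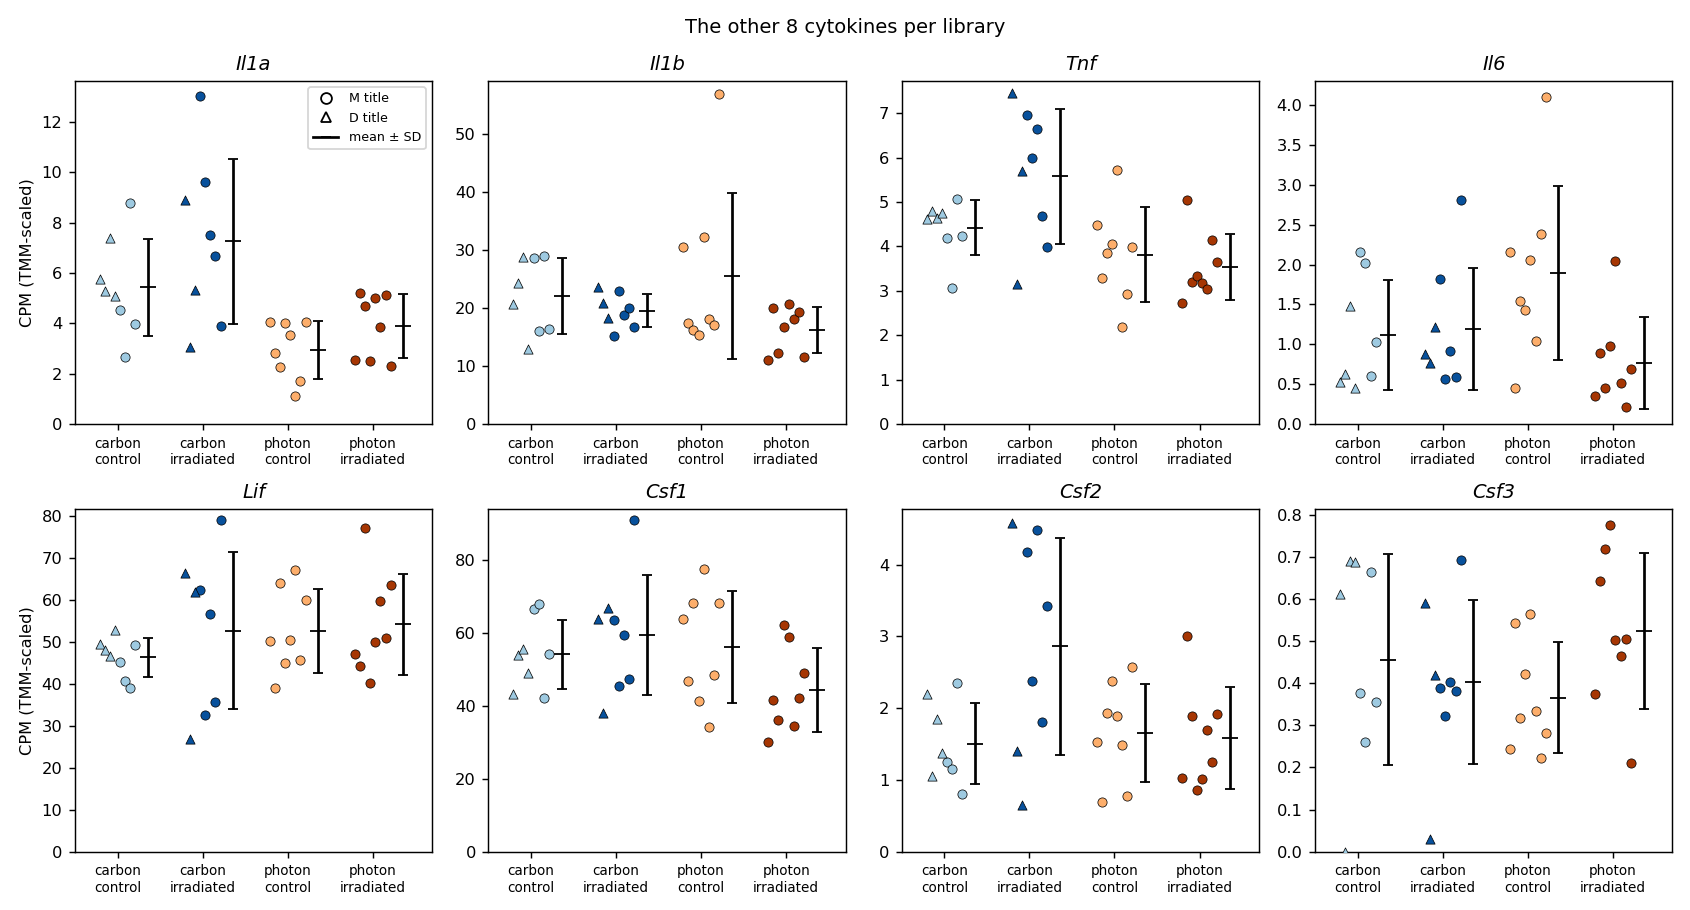
Level of the other 8 cytokines in each library, in TMM-scaled CPM on linear axes from 0 that differ between panels; circles are M-titled and triangles D-titled libraries, and bars give the mean ± SD of 8. Groups overlap for every gene, and Il1b in the photon controls has 1 library at 56.8 CPM.

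Averaged over both beams, no member passed, beside 0.772% of all genes, 0.440% higher and 0.332% lower. The members split evenly, with 5 positive and 5 negative values. The lowest unadjusted p belonged to Il1b, at -0.42 (SE 0.16, adjusted p = 0.206), followed by Il1a at 0.41 (SE 0.20, adjusted p = 0.346). For Il1b, fits that left out 1 library gave values from -0.45 to -0.28. The highest adjusted p, 0.387 by edgeR, came without photon control replicate 8.

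The difference between the effects, carbon ions minus photons, was tested directly. No member passed at the threshold, which 0.0781% of all genes passed, 0.0342% higher and 0.0440% lower. Il33 came nearest, with a difference of 1.03 (SE 0.23, adjusted p = 0.0581 by edgeR), since its log2 values were 0.33 after carbon ions and -0.70 after photons. Il11 had the widest difference, 2.62 (SE 0.67, adjusted p = 0.0865). DESeq2 gave adjusted p of 0.00527 for Il33 and 0.0178 for Il11, so for both genes the call depended on the tool. Il6 (1.37, SE 0.61) and Csf2 (0.99, SE 0.48) had an unadjusted p under 0.05 and adjusted p of 0.341 and 0.373. Of the 10 differences 9 were positive with a median of 0.48, beside 0.02 over all genes.

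The untreated controls of both arms differed from each other as well. Of the members 3 passed, beside 9.14% of all genes (5.13% with a positive and 4.01% with a negative value, carbon-ion minus photon): Il11 and Il33 were lower in the carbon-ion controls, and Il1a was higher. The photon controls enter this comparison as well as the photon effect, so these values are not independent of those above.

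Il11 averaged 3.59 ± 4.43 CPM in carbon-ion controls against 20.1 ± 13.5 CPM in photon controls, a log2 difference of -2.47 (SE 0.49, adjusted p = 0.00198). All 8 carbon-ion controls lay below the photon control median, and only replicate 1 reached the photon controls' range. Il33 was at 111 ± 27.4 CPM against 205 ± 44.6 CPM, a log2 difference of -0.88 (SE 0.16, adjusted p = 0.00114 by edgeR). All 8 carbon-ion controls were below the photon control median, and the groups overlapped, since the highest carbon-ion control, at 157 CPM, exceeded the lowest photon control, at 147 CPM. Both kept an adjusted p under 0.05 in all 32 fits that left out 1 library each.

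Il1a, an alarmin that acts without caspase-1 cleavage, lies on chromosome 2 (chr2:129299610-129309972, minus strand). Carbon-ion controls ran from 2.68 to 8.78 CPM with a median of 5.18 CPM, and photon controls from 1.11 to 4.07 CPM with a median of 3.19 CPM. The groups overlapped, with 7 of 8 carbon-ion controls above the photon control median. The log2 difference was 0.88 (SE 0.28, adjusted p = 0.0466), and it passed in 20 of 32 fits that left out 1 library. With the title letter as a term the adjusted p was 0.0860, with a log2 difference of 0.94. The difference in mean log2 CPM was 0.91 over all libraries (exact permutation p = 0.00839, unadjusted) and 0.73 within M-titled libraries, which hold 4 carbon-ion controls (exact p = 0.107).

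Marker lists moved with this comparison too. All 8 fibroblast markers were lower in direction in the carbon-ion controls, 2 past the threshold (Col1a2 and Pdgfra), with a summed range of 5276 to 12706 CPM against 9978 to 19735 CPM. All 6 epithelial markers were higher in direction, 2 past the threshold (Cdh1 and Cldn4), with a summed range of 2687 to 4705 CPM against 2357 to 3879 CPM. All 6 blood endothelial markers were lower in direction, with Emcn past the threshold and sums of 158 to 313 CPM against 231 to 446 CPM, and of 5 dendritic cell markers 4 were lower in direction, with Zbtb46 past the threshold. With none past the threshold, mast cell markers were lower in direction in 6 of 6 (median -0.72) and T cell markers in 6 of 7 (median -0.42). All 4 adipocyte markers were higher in direction (median 1.47), also with none past the threshold. No marker of these lists was at 0 throughout a group. Their part in the result was not tested.

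Between the irradiated groups, 1 member passed, beside 5.08% of all genes, 3.55% higher and 1.54% lower after carbon ions. These groups differ in arm as well as in beam, and the untreated controls of the arms differed at 9.14% of all genes. Beam and arm therefore cannot be told apart in this comparison. Tnf, the founding member of its ligand family, lies on chromosome 17 (chr17:35199381-35202007, minus strand) and was higher after carbon ions than after photons. It ran from 3.16 to 7.46 CPM after carbon ions (median 5.85 CPM) and from 2.73 to 5.05 CPM after photons (median 3.26 CPM). The groups overlapped, with 7 of 8 carbon-ion libraries above the photon median. The log2 difference was 0.65 (SE 0.18, adjusted p = 0.0325 by edgeR), it passed in 28 of 32 fits that left out 1 library, and its exact permutation p was 0.00637 (unadjusted). It did not pass without a filter on low counts (adjusted p = 0.0628) or with the title letter as a term (0.0591). Nor did it pass with only these groups in the fit (0.0857). With the skeletal muscle score as a term, an alternative added after seeing the data, the adjusted p was 0.119. The difference of effects of Tnf, each beam against its own controls, was 0.44 (SE 0.25, adjusted p = 0.439 by edgeR) and did not pass.

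Il1a had a larger log2 difference between the irradiated groups, 0.90 (SE 0.28), but an adjusted p of 0.0548 by edgeR and 0.0209 by DESeq2. Csf2 (0.85, SE 0.34, adjusted p = 0.111) and Csf1 (0.42, SE 0.17, adjusted p = 0.124) followed. Il11 and Il33, which differed between the controls, were at 0.14 (SE 0.46) and 0.15 (SE 0.16) between the irradiated groups. In the same comparison all 7 macrophage markers were higher in direction after carbon ions, 2 past the threshold (C1qa and C1qb), with summed levels of 517 to 838 CPM against 306 to 576 CPM. All 6 tested neutrophil markers were higher in direction, 4 past the threshold, with sums of 23.3 to 34.4 CPM against 9.01 to 20.8 CPM. All 6 skeletal muscle markers were higher in direction after carbon ions with none past the threshold, a median log2 difference of 3.10, and sums of 5.14 to 2996 CPM against 3.85 to 309 CPM. All 6 epithelial markers were also higher in direction with none past the threshold, a median log2 difference of 0.41, and sums of 2615 to 4632 CPM against 2154 to 3833 CPM. No marker of these lists was at 0 in every library of a group, and their part in the Tnf and Il1a values was not tested.

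**Figure D3:**
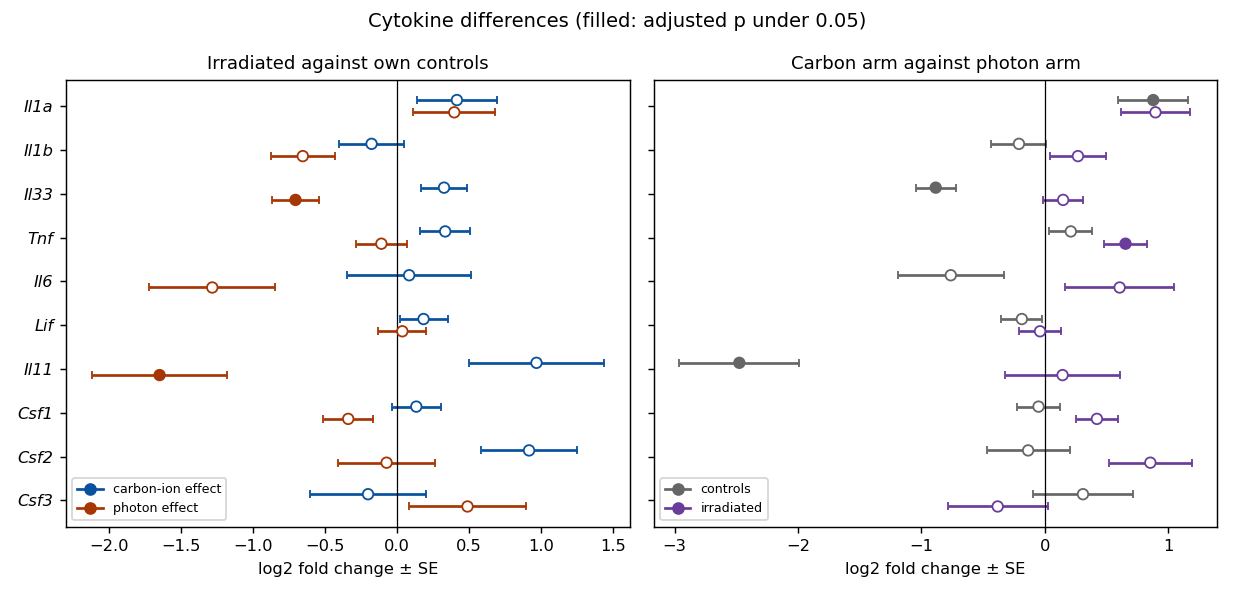
Log2 fold change ± SE of each cytokine: irradiated against own controls for each beam (left), and the carbon-ion arm against the photon arm for controls and for irradiated tumours (right); filled points have an adjusted p under 0.05. Il33 and Il11 are filled for the photon effect and for the controls, Il1a for the controls and Tnf for the irradiated groups.

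The order of the groups differed by gene. For Il33 the order of means was carbon-ion controls at 111 CPM, photon-irradiated at 126 CPM, carbon-ion irradiated at 139 CPM and photon controls at 205 CPM, and among the first 3, neighbours lay within 1 SD of each other. Il11 followed a like order, with 3.59, 6.40, 7.11 and 20.1 CPM, and again the photon controls stood apart from 3 groups whose means lay within the SD of the carbon-ion groups. For Il1a and Tnf both carbon-ion groups had higher means than both photon groups. Il1a averaged 5.43 ± 1.92 and 7.25 ± 3.26 CPM in the carbon-ion arm against 2.95 ± 1.16 and 3.90 ± 1.28 CPM in the photon arm, controls first. The 4 group means of Lif, from 46.3 to 54.2 CPM, lay within the largest SD of a group, 18.7 CPM.

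The receptors and other pathway genes were followed as 7 lists. Over all tested genes 49.9% of log2 differences were positive after photons, 51.5% after carbon ions, 46.8% between the controls and 51.1% between the irradiated groups, and the lists' counts stand beside these shares. Between the irradiated groups, beam and arm cannot be told apart for these genes either. The list of receptors held 14 genes. After photons all 14 had negative log2 differences, with a median of -0.35, and 3 were called lower, beside 2.10% of all genes. Csf3r, the G-CSF receptor of neutrophils, fell from 23.2 ± 7.72 to 13.4 ± 4.17 CPM (log2 fold change -0.79, SE 0.19, adjusted p = 0.0210). Csf1r, the receptor of macrophages for Csf1, fell from 155 ± 32.4 to 107 ± 18.5 CPM (-0.54, SE 0.14, adjusted p = 0.0260). Il1rap, the shared subunit of receptors for Il1a, Il1b and Il33, fell from 7.24 ± 3.56 to 3.49 ± 1.59 CPM (-1.05, SE 0.31, adjusted p = 0.0463). Csf3r and Csf1r stand beside the macrophage markers, 6 of 7 negative after photons with a summed range of 447 to 774 CPM in controls and 306 to 576 CPM after photons, and the neutrophil sums given above; their part in the result was not tested.

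The ligand-specific receptors of Il33 and Il11 did not pass after photons: Il1rl1, for Il33, was at -0.08 (SE 0.52), and Il11ra1, for Il11, was at -0.59 (SE 0.23, adjusted p = 0.131). These 2 were chosen after their values were seen, as partners of Il33 and Il11. After carbon ions no receptor passed, 9 of 14 were positive and the median was 0.03, with the smallest p for Tnfrsf1b (0.09, SE 0.09) and Osmr (0.20, SE 0.24), both at an adjusted p of 0.997. Between the controls, Osmr, the receptor subunit for oncostatin M, was lower in the carbon-ion arm, at 28.4 ± 12.3 against 56.5 ± 19.6 CPM (-0.99, SE 0.24, adjusted p = 0.00953). Between the irradiated groups Csf1r was higher after carbon ions (0.54, SE 0.14, adjusted p = 0.0282).

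Inhibitors and feedback genes formed a list of 12, of which 11 were tested. None passed in either effect. After photons 9 of 11 were negative with a median of -0.21, and Il1r2, a decoy receptor for interleukin-1, and Socs3, the STAT3-induced brake on gp130 signalling, came nearest at -0.68 (adjusted p = 0.0597) and -0.42 (adjusted p = 0.0599). After carbon ions 10 of 11 were positive with a median of 0.15, and Nfkbia, the NF-kB inhibitor, was at 0.25 (adjusted p = 0.864) and Zc3h12a, an RNase that degrades cytokine mRNAs, at 0.15 (adjusted p = 0.956). Socs3 (-0.56, adjusted p = 0.00703) and Zfp36, which destabilises cytokine mRNAs (-0.56, adjusted p = 0.0204), were lower in carbon-ion than in photon controls. Il1rn, the secreted interleukin-1 receptor antagonist, was higher after carbon ions than after photons, at a mean of 69.1 against 37.2 CPM (0.89, SE 0.19, adjusted p = 0.0149).

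Genes that process and release cytokines, 9 in all, passed in neither effect. After photons 7 of 9 were negative with a median of -0.29, led by Casp1, the protease that matures Il1b (-0.80, SE 0.25, adjusted p = 0.0651), and the inflammasome sensor Nlrp3 (-0.46, adjusted p = 0.181). After carbon ions 6 of 9 were positive, with Adam17, which sheds TNF, at 0.17 and the inflammatory caspase gene Casp4 at 0.41 (adjusted p = 0.880 and 0.939). Aim2, a cytosolic DNA sensor, was higher in the carbon-ion arm both in controls (1.03, SE 0.25, adjusted p = 0.00805) and in irradiated tumours (1.34, SE 0.25, adjusted p = 0.0130). Its means were 5.09 and 4.67 CPM in the carbon-ion arm and 2.49 and 1.85 CPM in the photon arm, controls first. Nlrc4 was also higher in the carbon-ion controls (0.27, adjusted p = 0.0390).

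Of 16 related cytokines, 13 were tested. After photons 1 of 13 was called lower, beside 2.10% of all genes, while 9 of 13 values were positive. It was Ltb, a membrane ligand of the TNF family, which went from 2.33 ± 0.757 to 1.24 ± 0.450 CPM (-0.90, SE 0.26, adjusted p = 0.0430). After carbon ions none passed, with Ebi3 at 0.29 and Cntf at -0.22 (both adjusted p = 0.996). None passed between the controls or between the irradiated groups.

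NF-kB targets, 18 genes, passed in neither effect. After photons 13 of 18 were negative with a median of -0.21, and the monocyte chemokine gene Ccl2 (-0.73, adjusted p = 0.0687) and Lcn2 (-1.73, adjusted p = 0.125) came nearest. After carbon ions 14 of 18 were positive with a median of 0.12, led by the neutrophil chemokine gene Cxcl3 (0.99, adjusted p = 0.628) and by Ptgs2, which encodes cyclooxygenase-2 (0.48, adjusted p = 0.880). Between the controls 3 of 18 were lower in the carbon-ion arm, beside 4.01% of all genes: Bcl3 (-0.35, adjusted p = 0.00862), Icam1 (-0.41, adjusted p = 0.0167) and Lcn2 (-2.27, adjusted p = 0.0306). Cxcl1, another neutrophil chemokine gene, was higher after carbon ions than after photons, at 15.6 ± 5.64 against 9.90 ± 1.93 CPM (0.65, adjusted p = 0.0379).

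The STAT3 list held 10 genes, and after photons 2 fell, beside 2.10% of all genes, with 8 of 10 values negative. Timp1, an inhibitor of matrix metalloproteinases, went from 77.4 ± 37.2 to 38.0 ± 15.2 CPM (-1.02, SE 0.28, adjusted p = 0.0364). Lrg1, a secreted glycoprotein, went from 25.6 ± 8.25 to 10.7 ± 3.29 CPM (-1.26, SE 0.36, adjusted p = 0.0424), and it was also lower on average over both beams (-1.03, SE 0.25, adjusted p = 0.0437). After carbon ions none passed, with Cebpb at 0.39 (adjusted p = 0.696) and Lrg1 at -0.81 (adjusted p = 0.775), and 9 of 10 values were positive. Stat3 itself, the transcription factor downstream of gp130, was lower in the carbon-ion controls at a mean of 152 CPM than in the photon controls at 224 CPM (-0.57, SE 0.11, adjusted p = 0.00204).

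Among 24 senescence genes, the cell-cycle inhibitor Cdkn1a and the stress-induced cytokine Gdf15 were higher on average over both beams, 2 of 24 beside 0.440% of all genes. Cdkn1a went from 32.4 ± 12.6 to 76.5 ± 41.3 CPM with carbon ions and from 29.8 ± 11.6 to 53.0 ± 13.2 CPM with photons, a mean log2 difference of 1.04 (SE 0.21, adjusted p = 0.0121). Gdf15 went from 1.22 ± 0.262 to 2.45 ± 1.20 CPM and from 0.843 ± 0.3196 to 1.51 ± 0.472 CPM, a mean log2 difference of 0.92 (SE 0.20, adjusted p = 0.0227). With carbon ions alone these 2 genes had the smallest p of the list and did not pass (adjusted p = 0.308 and 0.361 by edgeR). With photons alone neither passed, since no gene of the list was called higher after photons. Igfbp6, which binds insulin-like growth factors, fell after photons (-1.08, SE 0.29, adjusted p = 0.0333), 1 of 24 beside 2.10% of all genes. Mmp10, Mmp13 and Mmp14, matrix metalloproteinase genes, were lower in carbon-ion than in photon controls (-1.74, -1.22 and -0.39), and Mmp12 was higher after carbon ions than after photons (1.10, adjusted p = 0.0486). No gene of the 7 lists passed in the difference between the effects.

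The members were then compared with each other inside groups, by correlating log2 CPM over 32 libraries after each group's mean had been subtracted. Of 45 pairs 3 passed by Pearson r and 7 by Spearman rho, after Benjamini-Hochberg adjustment of a permutation p from 100000 resamples. The 3 passed by both. Il1a varied with Tnf (Pearson r = 0.79, Spearman rho = 0.76, permutation p = 1e-05, the smallest these resamples give, adjusted p = 0.00022). Il6 varied with Csf1 (r = 0.71, rho = 0.74, permutation p = 1e-05, adjusted p = 0.00022). Lif varied with Il11 (r = 0.55, rho = 0.58, permutation p = 0.00147, adjusted p = 0.0221).

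Without the 2 libraries farthest from the median of the first gene, r was 0.70, 0.71 and 0.42, and among M-titled libraries it was 0.77, 0.73 and 0.65. By group, the Il1a and Tnf pair ran from 0.44 in photon-irradiated to 0.89 in carbon-ion irradiated libraries. The Lif and Il11 pair was less even, at 0.93 in photon controls and 0.18 in photon-irradiated libraries. The pairs that passed by rho alone were Il1a with Il1b (rho = 0.51, adjusted p = 0.0280), Il1a with Csf2 (0.55, 0.0254), Tnf with Csf2 (0.57, 0.0252) and Il11 with Csf2 (0.54, 0.0268), with adjusted p for r between 0.0889 and 0.111. Il33 had no correlation above 0.28 with any other member.

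**Figure D4:**
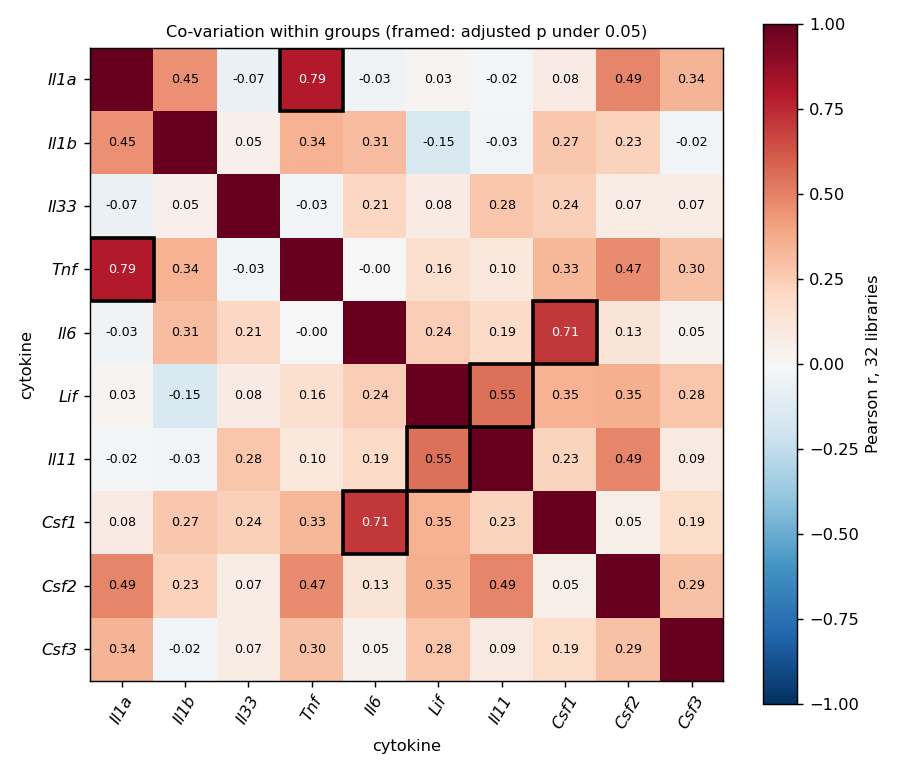
Pearson r between the log2 CPM of each pair of cytokines over 32 libraries, with group means subtracted; colour runs from -1 (blue) to 1 (red) and framed cells have an adjusted p under 0.05 for Pearson r. The framed pairs are Il1a with Tnf (0.79), Il6 with Csf1 (0.71) and Lif with Il11 (0.55).

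The same residual levels were set against the mean log2 level of 12 marker lists, in 120 relations, of which 9 passed by r and 7 by rho. Csf1 varied with macrophage markers (r = 0.76, rho = 0.78, permutation p = 1e-05, adjusted p = 0.0012), and also with dendritic cell (0.63), fibroblast (0.61), T cell (0.61) and adipocyte markers (0.55, not past the threshold by rho, adjusted p = 0.0924). Il6 varied with adipocyte (0.66) and macrophage markers (0.58). The adipocyte sums were low, with group medians from 0.667 to 2.30 CPM. Without the 2 libraries farthest from the median adipocyte score, r for Il6 was 0.59. Il1a varied with epithelial markers (r = 0.57, rho = 0.57, permutation p = 0.00187, adjusted p = 0.0281). Il11 passed with no list, and its r with fibroblast markers was 0.04 (adjusted permutation p = 0.930). Il33 varied with fibroblast markers (r = 0.53, rho = 0.47, permutation p = 0.0032, adjusted p = 0.0427 for r and 0.102 for rho), and r was 0.40 without the 2 libraries farthest from the median, so it rested in part on those.

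Among 12519 genes with a mean log2 CPM of at least 1, the pattern most like that of each member was named by the highest r over the 32 libraries. As for the pairs, each group's mean had first been subtracted, so differences between groups do not enter. For Il11 these were Mmp10, a stromelysin gene (0.87), and Dll4, a Notch ligand gene (0.86). Csf1 was most like Gvin-ps7 (0.91) and Itgam, the integrin chain of myeloid cells (0.90). Il6 was most like Cd163, a macrophage scavenger receptor gene (0.81), and Prg4 (0.81). Il1a and Tnf shared their nearest gene, the laminin gene Lama3 (0.78 and 0.77), followed by Cish (0.75) for Il1a and the dendritic and myeloid integrin gene Itgax (0.72) for Tnf.

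Lif was most like Plekhg2 (0.84) and Dot1l (0.83), Il33 most like Dpagt1 (0.77) and Ccm2 (0.76), and Csf2 most like Slc17a8 (0.76) and Slco4a1 (0.75). The likeness of Csf3 to Leng1 (0.74) and Rrbp1 (0.70) rests on few counts. Il1b had the weakest neighbours, the immediate-early genes Fos (0.59) and Btg2 (0.55).

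Of the members, 3 overlap another annotated gene. Il1a overlaps Gm14023, Il1b overlaps Il1bos and Csf2 overlaps Gm12223, whose mean levels were 0.584, 0.470 and 0.0243 CPM. The strand setting of the counting is not given in the sources used here, so reads of such pairs may have been divided between them.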

How the data were processed

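The deposited values are RSEM's estimated counts for each gene, obtained by the authors with Trimmomatic 0.32 and RSEM 1.3.3 on mm10 after FastQC 0.12.0, per the submitters' processing notes. The annotation and the strand setting are not given in the sources used here, and only 4 of 853648 values above 0 were whole numbers (tolerance 1e-06). The design had assumed whole-number counts, so values were rounded first, and no library total moved by more than 0.00403%. Libraries were made from messenger RNA with a stranded kit, per the labels' protocols.

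Tests used edgeR 4.0.16 under R 4.3.3: filterByExpr by group with a minimum count of 10 (20474 genes), TMM scaling, and 1 quasi-likelihood fit of all 32 libraries with a coefficient per group. Benjamini-Hochberg adjustment ran over every tested gene of a comparison, with a threshold of 0.05. Standard errors come from the F statistic, and log2 CPM used a prior count of 2. The fit was also run on simulated counts, and that outcome is not given here. Replicate numbers follow the order of deposition and pair nothing. Alternatives were DESeq2 1.42.0, other scalings, no filter, the title letter, M-titled libraries alone, only the groups compared, and leaving out each library. Exact permutation tests of each beam's effect were a further alternative, judged by unadjusted p.

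The members, the 7 lists and the 12 marker lists were chosen with earlier results of these data known. All members are named. Of each of the 7 lists, every gene past the threshold is named, up to 4 per comparison, and where none passed in an effect the 2 with the smallest p. Marker lists are given by counts and summed levels. Genes most like a member leave out predicted genes and the members themselves. Gene positions and exon lengths come from GENCODE M21 on GRCm38, the build of mm10, and 9 of 10 members had a RefSeq start.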

Additional observations from a re-analysis of the deposited data

Results flagged for a closer look

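Within the 40 groups formed by 10 cytokines and 4 groups of 8 libraries, 4 held an outlying library. Its gap to its nearest neighbour exceeded, as a share of the group's range, Dixon's 95% critical value. Chance gives about 1 in 20 such groups if values are independent and normally distributed. Whether that holds for these CPM values, on a linear scale and from the same libraries, was not tested. Il11 in the carbon-ion controls had 1 library at 14.3 CPM, replicate 1, with the next at 3.71 CPM. Without it the carbon-ion difference of Il11 was 1.79 on the log2 scale, with an adjusted p of 0.349 by edgeR. Il1b in the photon controls had 1 library at 56.8 CPM, replicate 8. Il6 in the photon-irradiated libraries had 1 at 2.04 CPM, replicate 5, and without it the photon difference of Il6 was -1.66 with an adjusted p of 0.0291 by edgeR. Tnf in the carbon-ion controls had 1 low library at 3.06 CPM, replicate 6.

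For Il11, all 8 carbon-ion irradiated libraries were above their control median and all 8 photon-irradiated libraries were below theirs. The carbon-ion difference, 0.97 on the log2 scale, did not pass (adjusted p = 0.864 by edgeR), and within D-titled libraries it was 0.10 in mean log2 CPM (exact permutation p = 0.971), with a range of -0.36 to 0.77 when 1 of those 7 libraries was left out. The direct test of that difference gave 2.62 on the log2 scale, with an adjusted p of 0.0865 by edgeR, which did not pass. Over the alternatives that left out 1 library the adjusted p ran from 0.00760 to 0.189. The cause was not tested.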

How the results depend on the processing

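Across 1920 refits of a member's result with 1 library left out, 1838 kept their direction and side of the threshold, 31 lost the call, 15 gained it and 36 changed sign. Of 554 values under other settings, 513 kept both, 12 lost the call, 10 gained it and 19 changed sign. These 554 include exact permutation tests, whose call was an unadjusted p under 0.05. Il11 after carbon ions (exact permutation p = 0.0494) and Il6 after photons (0.0146) count as gained in this way. Every sign change was in a log2 difference that passed in neither fit, or, within D-titled libraries, in a value with no test. With single libraries left out, Il6 after carbon ions ran from -0.21 to 0.29, Lif after photons from -0.043 to 0.10, Csf2 after photons from -0.28 to 0.050, Il11 averaged over both beams from -0.47 to 0.071 and the Il1a difference of effects from -0.16 to 0.15. Between controls Il1b ran from -0.27 to 0.070 and Csf1 from -0.11 to 0.029, and between irradiated groups Lif ran from -0.14 to 0.061 and Il11 from -0.12 to 0.30. M-titled libraries alone gave -0.14 for Il6 and 0.090 for Csf3 after carbon ions, 0.32 for Il11 over both beams and 0.057 for Csf1 between controls. The title letter gave -0.0095 for the Il1a difference of effects and 0.026 for Csf1 between controls, and upper-quartile scaling gave -0.043 for the former. Without photon controls 3 and 8, Csf2 was at 0.12 after photons and 0.063 between controls, the Il1a difference of effects at -0.011, and Il1b and Csf1 between controls at 0.025 and 0.068. With the muscle term Lif was at -0.033 after photons and 0.035 between irradiated groups. Within D-titled libraries, an alternative added after seeing the data, the carbon-ion value of Il11 was -0.13 and -0.36 without control replicate 3 or 4 and -0.35 without irradiated replicate 1, and that of Csf2 was -0.12 without control replicate 2 and -0.67 without irradiated replicate 1. The Il11 photon call also ended without a filter on low counts (adjusted p = 0.0584, edgeR), and when 14 single libraries were left out. The Il1a difference between controls ended without a filter (0.0694), within M-titled libraries (0.235), without photon controls 3 and 8 (0.101), with the muscle score as a term (0.0545) and when 12 single libraries were left out, up to 0.118 without carbon-ion control replicate 7. The Tnf call ended without a filter (0.0628), with the muscle score as a term (0.119) and without carbon-ion irradiated replicate 5 or photon-irradiated replicate 1, 3 or 7 (up to 0.0739). The Il33 difference of effects passed with upper-quartile scaling (0.0354) and with the muscle term (0.0485), and that of Il11 passed within M-titled libraries at 3.93 (0.0311). The 15 calls gained without 1 library were the Il33 difference of effects in 4 of 32 fits (lowest adjusted p = 0.0283, without photon control replicate 2), that of Il11 in 3 (0.00760, without carbon-ion control replicate 1), Il1a between irradiated groups in 4 (0.0326) and Csf2 between them in 1 (0.0340), both lowest without carbon-ion irradiated replicate 3, and after photons Il6 in 2 (0.0291, without irradiated replicate 5) and Il1b in 1 (0.0478, without control replicate 2).

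Counts of all genes called moved more. Single libraries left out gave 0 to 5 for carbon ions (5 without irradiated replicate 2), 239 to 1656 for photons (239 without photon control replicate 3, 1656 without replicate 2), 65 to 397 for the mean of both, 5 to 108 for their difference, 1178 to 2196 for the controls and 108 to 2159 for the irradiated groups. DESeq2 called 17 genes for carbon ions, 1518 for photons against 781 by edgeR, 468 for the mean against 158, 270 for the difference against 16 and 2018 for the irradiated groups against 1041. Without a filter the counts were 431 for photons, 4 for the difference and 319 for the irradiated groups. M-titled libraries alone gave 9 for the mean, 1 for the difference and 973 for the controls against 1871. The title letter as a term gave 98 for the mean, 1081 for the controls and 502 for the irradiated groups, and a fit of only the irradiated groups gave 57. Leaving out photon controls 3 and 8 gave 16 for photons, 54 for the mean, 3 for the difference and 688 for the controls. The muscle term gave 165 for photons, 67 for the mean, 7 for the difference and 3 for the irradiated groups. Both of these last choices were added after seeing the data. Upper-quartile scaling gave 94 for the difference, 22 higher and 72 lower against 7 and 9. It turned the split for photons to 566 higher and 394 lower against 351 and 430, and for the irradiated groups to 519 and 537 against 726 and 315. The causes were not tested. No paired analysis was possible because the replicate numbers follow the order of deposition. Low depth limits Csf3 and Il6 most.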
